A study of Mus musculus with 2 samples.

Results

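The ligands of the chemokine receptor CCR2 and the receptor itself were followed across the leukocytes of mouse liver tumours. The genes were Ccl2, Ccl7, Ccl8, Ccl12 and Ccr2, taken by their symbols, and all 5 were found among the 32285 genes of the count matrices. The 2 libraries held sorted CD45+ cells. The AKK library came from tumours of C57BL/6 mice fed 5e9 CFU of the gut bacterium Akkermansia muciniphila, and the PBS library came from tumours of mice given PBS instead. The MCD diet, which lacks methionine and choline and makes the liver fatty, was fed to both groups, and all mice carried luciferase-labelled RIL-175 cells, a mouse liver cancer line, implanted in the liver. Oral dosing began 2 weeks before the diet, the diet 2 weeks before implantation, and dosing was paused for 6 days after surgery. The sources used here do not give how many mice were pooled in a library, their age or their sex. With 1 library per group there is no replicate, so no test was made between AKK and PBS. Each interval below is an exact 95% interval that covers counting error only, cells of 1 library are not replicates, and mouse, sort and library cannot be told apart from the feeding.

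CCR2 is a G protein-coupled receptor that draws classical monocytes out of the bone marrow and into inflamed or tumour-bearing tissue. CCL2, also called MCP-1, is its best known ligand, CCL7 (MCP-3) binds it as well, and CCL12 (MCP-5) is a mouse ligand of the same receptor. CCL8 (MCP-2) belongs to the same MCP family, although the mouse protein is known mainly as a ligand of CCR8. In liver tumours, CCR2-bearing monocytes are a source of tumour macrophages, which in turn can make these chemokines.

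The 4 ligand genes lie on the plus strand of mouse chromosome 11 (GRCm38, GENCODE M21) within 81.2 kb, in the order Ccl2, Ccl7, Ccl12 and Ccl8. Ccl2 spans chr11:82035571-82037453, Ccl7 chr11:82045712-82047525, Ccl12 chr11:82101845-82103400 and Ccl8 chr11:82115185-82116799, and the longest annotated transcript of each has 3 exons. The eosinophil chemokine gene Ccl11 lies between Ccl7 and Ccl12. Ccl2 overlaps the gene Gm17268 on the opposite strand, and the sources used here do not give the strand setting of the authors' counting. Gm17268 had 99 UMIs (unique molecular identifiers, counted transcripts) in AKK and 210 UMIs in PBS macrophage-like cells, where Ccl2 had 1098 and 3777 UMIs. In classical monocyte-like cells it had 218 UMIs in AKK and 64 in PBS, where Ccl2 had 1259 and 1166. In tumour or epithelial-like cells it had 41 and 199, where Ccl2 had 333 and 538. Whether the overlap has a part in the Ccl2 counts was not tested. Ccr2 lies on chromosome 9 (chr9:124101950-124113557, plus strand).

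The stretches of 250 bases before the start sites of Ccl12 and Ccl8 are shown because these neighbouring genes had the most alike pattern of levels among the ligands (RefSeq, GRCm38.p6, plus strand). Capitals mark the TATA box, and the windows are chr11:82101595-82101844 for Ccl12 and chr11:82114935-82115184 for Ccl8.
Ccl12: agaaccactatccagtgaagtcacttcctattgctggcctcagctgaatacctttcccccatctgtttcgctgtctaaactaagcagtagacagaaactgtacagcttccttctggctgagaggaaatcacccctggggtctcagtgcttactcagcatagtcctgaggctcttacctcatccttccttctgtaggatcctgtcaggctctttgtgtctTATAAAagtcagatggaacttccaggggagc
Ccl8: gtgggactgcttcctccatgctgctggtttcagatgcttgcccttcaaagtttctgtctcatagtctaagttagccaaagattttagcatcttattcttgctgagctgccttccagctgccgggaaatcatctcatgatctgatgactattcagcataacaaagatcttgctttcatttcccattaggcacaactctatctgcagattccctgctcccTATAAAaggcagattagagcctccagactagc
The letters TATAAA began 31 bases before the Ccl12 start and 32 bases before the Ccl8 start, while 12.4% of 32851 windows of this length held them on either strand. No match to GGNNTTTCC (the NF-kappa B motif without its first base, in 4.93% of windows), TTCNNNGAA (the STAT motif GAS, 7.02%) or TGANTCA (AP-1, 6.75%) was found in either of the 2 windows or in the window of Ccr2, which had no TATAAA. Both strands were searched, and the absence of these letters says nothing of the factors.

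The AKK library held 6610 barcodes and 74495998 UMIs, and the PBS library 5088 barcodes and 64731604 UMIs. After filtering, 6172 AKK and 4638 PBS cells were kept, with medians of 6368 and 6747 UMIs, and 8 barcode sequences occurred in both libraries. Clusters were built without the 5 genes and named by fixed marker sets, which gave 16 classes and left 2 of 55 clusters unnamed. A UMI of Ptprc, which encodes CD45, was found in 94.0% of AKK and 91.5% of PBS cells. The class called tumour or epithelial-like, defined by keratin and cadherin genes, had one in 73.0% of AKK and 66.7% of PBS cells. Its cells were far deeper, with medians of 79276 UMIs in AKK and 75550 in PBS, so these shares cannot be set beside those of all cells. It had 401 Ptprc UMIs in 115 AKK cells and 366 in 159 PBS cells. All kept cells had 93901 Ptprc UMIs in AKK and 62705 in PBS. B-like cells, which should lack the 4 ligands, served as the background for RNA free in the droplets. They had 5.55 CPM (counts per 1000000 UMIs of the class) of Ccl2 in AKK and 8.99 CPM in PBS, and their Ccr2 levels were 8.11 and 6.22 CPM.

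Ligand transcripts came mostly from monocytes and macrophages, whereas the receptor was spread over myeloid and lymphoid classes. Macrophage-like cells made up 6.55% of AKK and 11.1% of PBS cells but held 89.8% and 89.3% of all Ccl8 UMIs, and 71.5% and 82.2% of all Ccl12 UMIs. They also held 38.7% of Ccl7 UMIs in AKK and 60.6% in PBS, and 24.4% and 47.2% of Ccl2 UMIs. Much of the remaining Ccl2 came from classical monocyte-like cells, with 28.0% of AKK and 14.6% of PBS UMIs. A further 19.6% and 21.9% came from an unnamed cluster led by Arg1, which encodes arginase, and Saa3, an acute-phase gene, although it held 1.96% of AKK and 1.90% of PBS cells. This cluster scored highest for macrophage genes but shared more leading genes with monocytes, so it stays outside both classes. Myeloid precursor-like cells held 10.7% of Ccl2 UMIs in AKK and 3.03% in PBS. Tumour or epithelial-like cells held 7.41% and 6.72%, and neutrophil-like cells 4.45% and 3.51%. Of Ccl7 UMIs, the Arg1 and Saa3 cluster held 25.95% in AKK and 21.06% in PBS, and of Ccl12 UMIs 18.3% and 10.6%. Classical monocyte-like cells held 10.05% of Ccl7 UMIs in AKK and 6.40% in PBS. Tumour or epithelial-like cells, the deep class described above, held 9.76% and 3.29%.

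**Figure D1:**
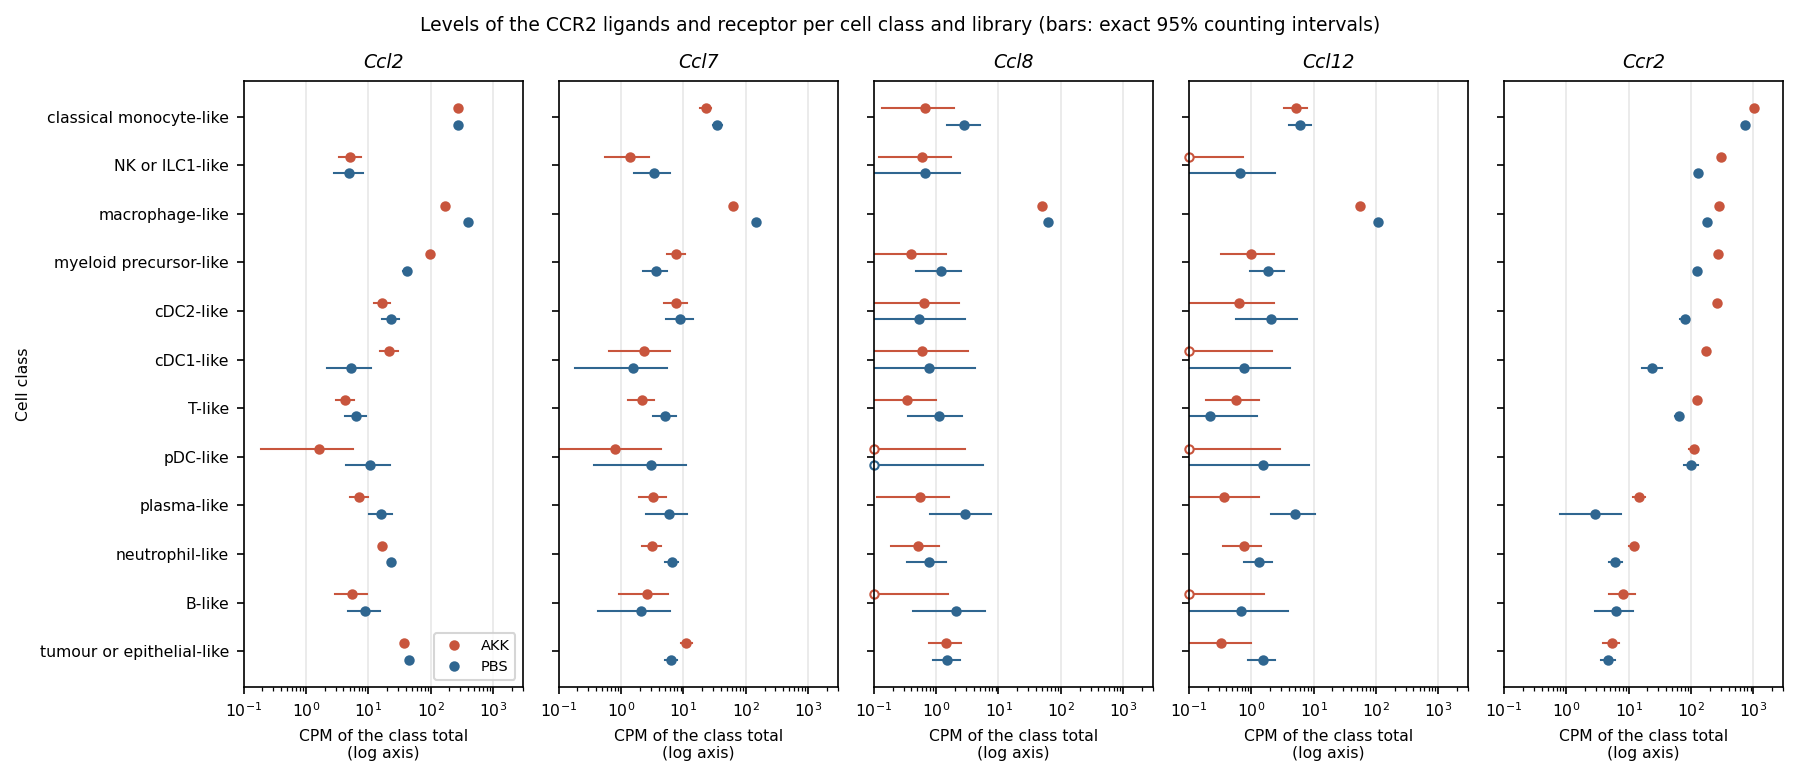
Level of each gene (CPM of the class total, log axis) in the 12 cell classes that had 30 or more cells in both libraries, AKK above PBS, with exact 95% counting intervals. Open circles stand at the left edge for classes with 0 UMIs. Ccl8 and Ccl12 stand out in macrophage-like cells alone, while Ccr2 is high in classical monocyte-like cells (1035 CPM in AKK, 725.8 CPM in PBS) and present in several lymphoid and dendritic classes.

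**Figure D2:**
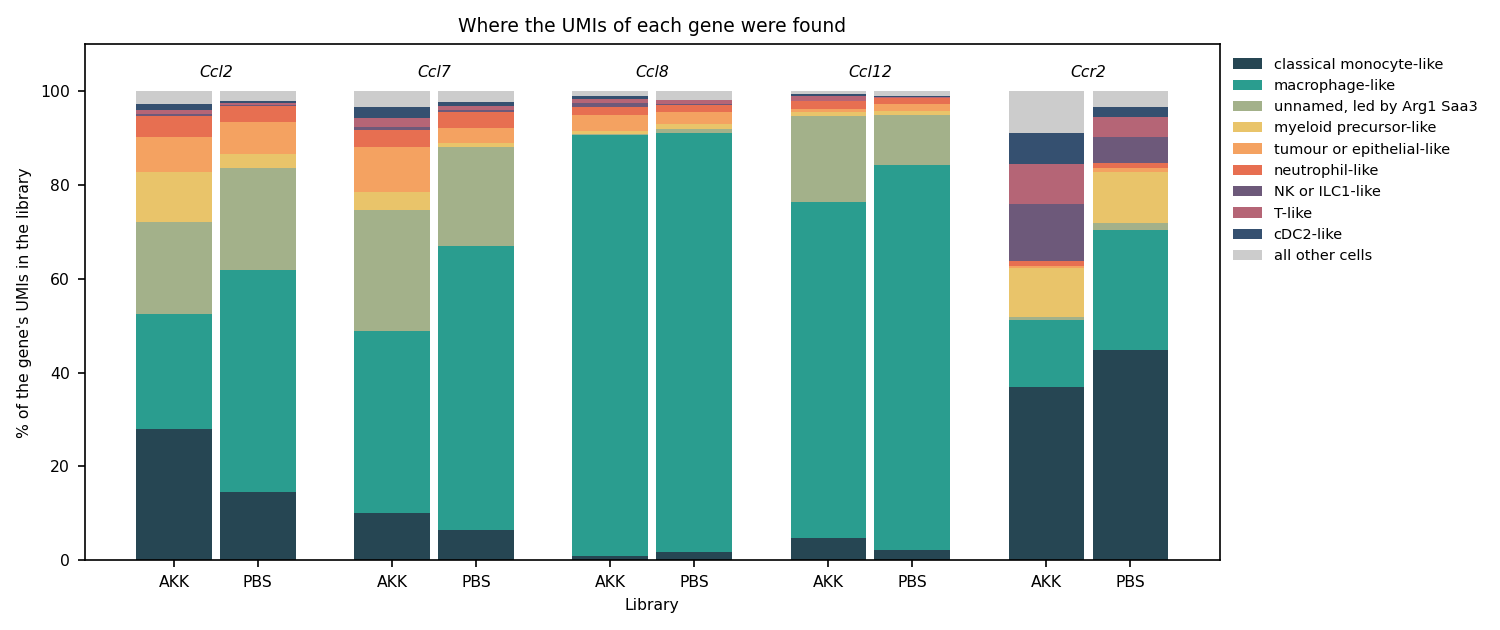
Share of each gene's UMIs (%, linear axis) found in each class, with the AKK bar left of the PBS bar. Classical monocyte-like cells gave 28.0% of Ccl2 UMIs in AKK and 14.6% in PBS, and NK or ILC1-like cells gave 12.1% of Ccr2 UMIs in AKK and 5.67% in PBS.

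Over all kept cells, each of the 4 ligands was lower and the receptor higher in AKK. Ccl2 stood at 66.3 CPM in AKK and 132.9 CPM in PBS (ratio 0.499), Ccl7 at 15.1 and 38.4 CPM (0.394), Ccl8 at 5.36 and 11.1 CPM (0.485), and Ccl12 at 7.42 and 20.7 CPM (0.358). Ccr2 stood at 187.2 CPM in AKK and 113.3 CPM in PBS (1.65). These totals mix the share of each class with its level, so the classes are described one by one. In macrophage-like cells, 3 of the 5 genes were at least 1.5-fold lower in AKK, where 7.74% of 10695 genes with at least 50 UMIs were, and 1 was at least 1.5-fold higher, where 8.22% were. The higher one was Ccr2, whose log2 ratio of 0.63 became 0.52, short of 1.5-fold, with scaling by the median gene. With that scaling, 578 genes were that much higher and 1109 lower in place of 879 and 828. In classical monocyte-like cells, 1 of 4 measured genes was that much lower (8.25% of 8812 genes) and none was that much higher (12.7%). With median scaling the counts there were 671 higher and 1055 lower in place of 1123 and 727. The median gene had a log2 ratio of 0.11 in macrophage-like, 0.14 in classical monocyte-like and 0.11 in myeloid precursor-like cells, to which the ratios of these classes can be set.

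Ccl2, the main monocyte attractant, was lower in AKK macrophage-like cells. Its level was 169.8 CPM in 404 AKK cells (interval 159.9 to 180.1) and 391.0 CPM in 513 PBS cells (378.6 to 403.7), a ratio of 0.434 (0.406 to 0.465). The intervals lay far apart. After each cell was thinned to 3564 UMIs, 19.5% of 354 AKK cells and 33.1% of 471 PBS cells had a Ccl2 UMI, a difference of -13.6 percentage points (-19.4 to -7.58). Without thinning the shares were 32.7% in AKK and 51.9% in PBS. The thinning left out 50 AKK and 42 PBS cells that were shallower, and the median depths were 13982 and 17253 UMIs. At the same thinned depth, 1.92% of AKK and 2.04% of PBS B-like cells had a Ccl2 UMI (unthinned medians of 7227 and 8330 UMIs). Macrophage markers summed to 6485 CPM in AKK and 9869 CPM in PBS macrophage-like cells, those of Kupffer cells, the resident macrophages of the liver, to 2.47 and 23.1 CPM with 2 of 5 at 0 in AKK, and neutrophil markers to 1102 and 1392 CPM. Whether these markers have a part in the difference was not tested.

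Different clusters held most of the macrophage-like class in each library. In AKK the largest had 137 cells and was led by Cd74, Pid1 and the MHC class II gene H2-Eb1, with 48 cells in PBS. In PBS the largest was led by the matrix metalloproteinase genes Mmp13 and Mmp12 and the complement gene C1qa, with 65 AKK and 211 PBS cells, followed by one led by Arg1 and Fn1, the fibronectin gene, with 49 AKK and 147 PBS cells. Ccl2 was lower in AKK in each of the 5 macrophage-like clusters that had at least 20 cells in both libraries, with ratios of 0.244 to 0.778 and every interval below 1. In the Mmp13 cluster it was 145.7 CPM in AKK and 261.7 CPM in PBS, in the Cd74 cluster 196.0 and 339.0 CPM, and in the Arg1 and Fn1 cluster 582.8 and 748.8 CPM. The Arg1 and Saa3 cluster had the highest Ccl2 levels of these cells, 699.4 CPM in 121 AKK cells and 1208 CPM in 88 PBS cells (0.579, 0.533 to 0.628). With these 5 clusters weighted alike, the log2 ratio for the class was -0.71 in place of -1.20, so the size of the difference moved with the cluster make-up and its direction did not.

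Among the other classes with at least 100 cells in both libraries, Ccl2 differed less than in macrophage-like cells or was higher in AKK. Classical monocyte-like cells had 277.7 CPM in 353 AKK cells (262.6 to 293.5) and 276.2 CPM in 305 PBS cells (260.6 to 292.5), a ratio of 1.005 (0.928 to 1.09). The intervals overlapped almost wholly. That near-equality was the sum of unlike clusters, with 1.37 (1.11 to 1.70) in one led by Plcb1, Lyz2 and Nrg1 and 0.512 (0.422 to 0.624) and 0.366 (0.171 to 0.698) in 2 led by Plcb1, Pid1 and Nrg1, and the class log2 ratio ran between -0.68 and 0.27 under other processing. Myeloid precursor-like cells, marked by granule genes such as Mpo and Elane, had 96.8 CPM of Ccl2 in 136 AKK cells and 41.6 CPM in 142 PBS cells, a ratio of 2.33 (1.99 to 2.73). Most of these UMIs lay in a cluster led by Prtn3, Nrg1 and F13a1, with 234.5 CPM in 50 AKK cells and 78.4 CPM in 46 PBS cells. Another precursor cluster, led by Camp, Ngp and S100a9, had 36 AKK and 65 PBS cells. Neutrophil markers summed to 29590 CPM in AKK and 64510 CPM in PBS precursors, and classical monocyte markers to 4514 and 3532 CPM. Whether this make-up has a part in the difference was not tested. Of 10014 genes measured in these precursors, 8.95% were at least 1.5-fold higher in AKK and 5.55% that much lower, and the 3 measured members, Ccl2, Ccl7 and Ccr2, were on the higher side. The share of precursors with a Ccl2 UMI was 34.6% in AKK and 38.0% in PBS without thinning, at medians of 33196 and 36344 UMIs per cell. After thinning to 1032 UMIs it was 5.93% of 118 AKK and 0.758% of 132 PBS precursors, a difference of 5.17 percentage points (0.614 to 11.0), with 0.702% of AKK and 1.86% of PBS B-like cells beside it. With other filters or clusterings the class held 55 to 71 AKK and 44 to 62 PBS cells, and Ccl2 then stood between 32.8 and 42.1 CPM in AKK and between 25.6 and 33.7 CPM in PBS, far closer together. Neutrophil-like cells had 16.9 CPM of Ccl2 in AKK and 23.6 CPM in PBS (0.715, 0.594 to 0.860), and tumour or epithelial-like cells 36.9 and 45.4 CPM (0.813, 0.707 to 0.934). T-like cells, at 4.25 CPM in AKK and 6.36 CPM in PBS, did not exceed the B-like background. Among the small classes, mast or basophil-like cells had 33.3 CPM of Ccl2 in 53 AKK cells and 302.5 CPM in 29 PBS cells, from 16 and 86 UMIs. That class joined unlike clusters. One led by Prss34 and Mcpt8 had 37 AKK cells and 1 PBS cell, and one led by Mcpt1 and Mcpt2 had 16 AKK and 28 PBS cells. Its 2 levels therefore come from different mixtures of cells. The second unnamed cluster, led by Retnlg and Retnla, had 1 Ccl2 UMI in 22 AKK cells and 9 in 157 PBS cells.

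**Figure D3:**
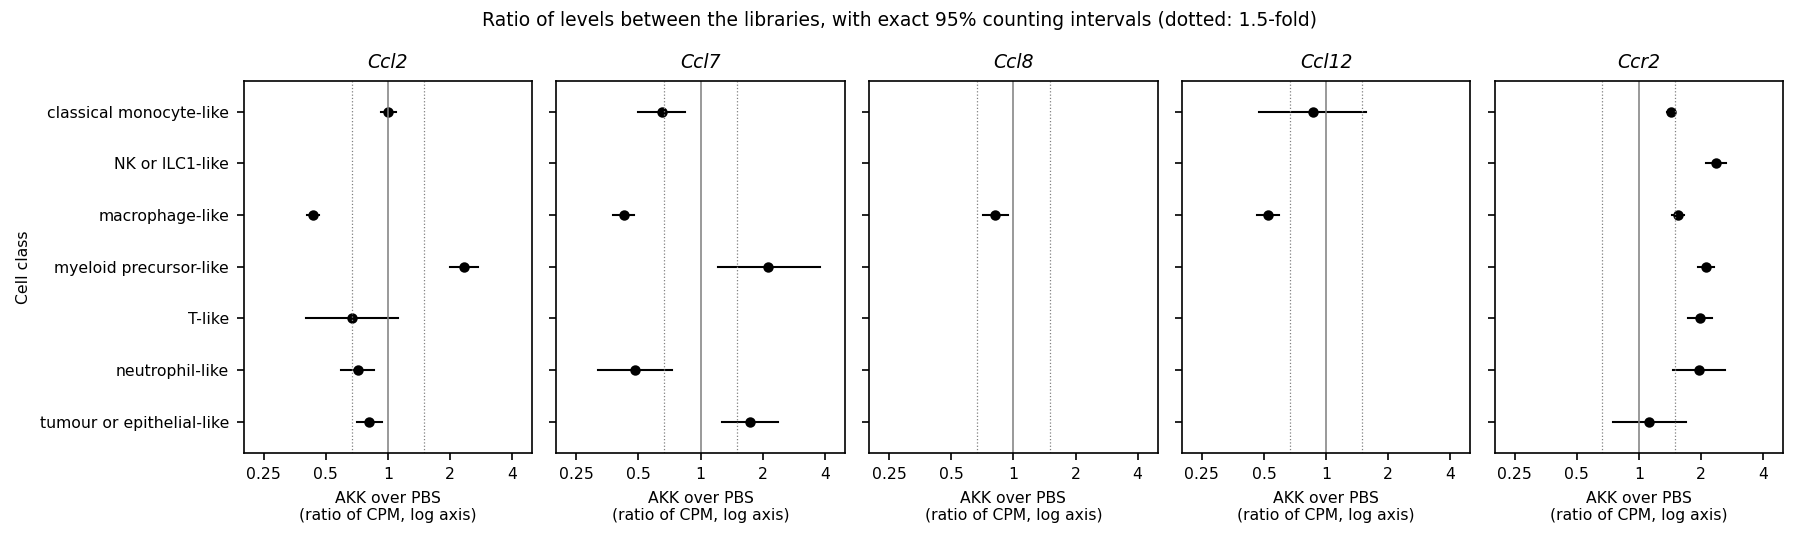
Ratio of the level in AKK to that in PBS (log axis) for each gene in classes of 100 or more cells per library that had 50 or more UMIs of the gene, with exact 95% counting intervals. The solid line marks equal levels and the dotted lines 1.5-fold. Ccl2 stood at 0.434 in macrophage-like and 2.33 in myeloid precursor-like cells, and Ccr2 lay above 1 in each class drawn, although its interval in tumour or epithelial-like cells included 1.

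Ccl7, a monocyte attractant encoded next to Ccl2, was also lower in AKK macrophage-like cells. It had 61.4 CPM in AKK (55.5 to 67.7) and 144.9 CPM in PBS (137.4 to 152.7), a ratio of 0.424 (0.378 to 0.474). The clusters did not share this direction. The Mmp13 cluster had 69.3 CPM in AKK and 214.3 CPM in PBS (0.324, 0.257 to 0.402), and the Arg1 and Fn1 cluster 193.8 and 124.0 CPM (1.56, 1.28 to 1.90). Of the 5 clusters, 3 had ratios below 1 and 2 above, and with the clusters weighted alike the log2 ratio of the class was -0.27 against -1.24 for the pooled cells. Without the Mmp13 cluster the log2 ratio was -0.54, short of 1.5-fold. The Arg1 and Saa3 cluster had 211.7 CPM in AKK and 336.0 CPM in PBS (0.630, 0.540 to 0.733). Classical monocyte-like cells had 22.7 CPM in AKK and 35.1 CPM in PBS (0.648, 0.499 to 0.839), but the log2 ratio of -0.63 turned to 0.14 when cells needed 1000 UMIs and to 0.11 when each library was clustered alone.

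Outside these classes, 3 more had enough Ccl7 for a ratio. Neutrophil-like cells had 3.12 CPM in AKK and 6.46 CPM in PBS (0.483, 0.317 to 0.724), where B-like cells had 2.56 and 2.07 CPM. Of all their measured genes 4.59% were at least 1.5-fold lower and 8.0% that much higher, of 10453. Myeloid precursor-like cells had 38 UMIs in AKK and 21 in PBS (7.63 and 3.61 CPM, 2.12), and tumour or epithelial-like cells 100 UMIs in AKK and 76 in PBS (11.1 and 6.42 CPM, 1.73). In the tumour or epithelial-like class 7.21% of 11582 genes were that much higher and 3.78% that much lower. Both of these higher values turned below 1 when each cell was weighted alike, with log2 ratios of -2.43 and -0.48. In the 5 smaller precursor classes given by other filters or clusterings, Ccl7 was also lower in AKK, between 1.51 and 2.22 CPM against 1.78 to 3.10 CPM in PBS, from 5 to 9 UMIs per library.

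Ccl12, the mouse CCR2 ligand MCP-5, had 55.5 CPM in AKK (49.9 to 61.6) and 106.2 CPM in PBS macrophage-like cells (99.8 to 112.9), a ratio of 0.523 (0.462 to 0.590). The intervals did not overlap. It was highest in the complement-rich clusters, at 199.6 CPM in AKK and 299.1 CPM in PBS in the one led by Ccl24 and C1qa (0.667, 0.502 to 0.883), and at 145.7 and 154.0 CPM in the Mmp13 cluster (0.946, 0.80 to 1.11). The Arg1 and Fn1 cluster had 25.4 CPM in AKK and 57.0 CPM in PBS (0.446, 0.262 to 0.719). Of the 5 clusters, 3 had ratios below 1 and 2 above, and only 2 intervals lay below 1. Weighted alike, the clusters gave a log2 ratio of -0.42 against -0.94 for the pooled class. In classical monocyte-like cells Ccl12 was scarce, with 24 UMIs in AKK and 26 in PBS, and no difference was detectable at this depth.

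Ccl8 was the most restricted of the ligands and the one with no stable direction. Macrophage-like cells had 50.4 CPM in AKK (45.1 to 56.2) and 61.6 CPM in PBS (56.8 to 66.8), a ratio of 0.818 (0.713 to 0.938). Of these UMIs, 91.7% in AKK and 98.0% in PBS came from 2 clusters rich in C1qa, singled out after their values were seen. There it was higher in AKK, with 177.6 CPM against 126.4 CPM in PBS in the Mmp13 cluster (1.41, 1.20 to 1.64) and 170.7 CPM against 50.2 CPM in PBS in the Ccl24 and C1qa cluster (3.40, 2.10 to 5.70). Those 2 clusters held 119 of 404 AKK cells (29.5%) and 251 of 513 PBS cells (48.9%). The log2 ratio of the class was -0.29 pooled, 0.49 with each cell weighted alike and 0.998 with clusters weighted alike. Classical monocyte-like cells had 3 UMIs in AKK and 12 in PBS, at or near the floor of 3 counts, and B-like cells had 3 UMIs in PBS and 0 in AKK, where 3 counts would be 1.28 CPM and the exact interval reaches 1.57 CPM.

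**Figure D4:**
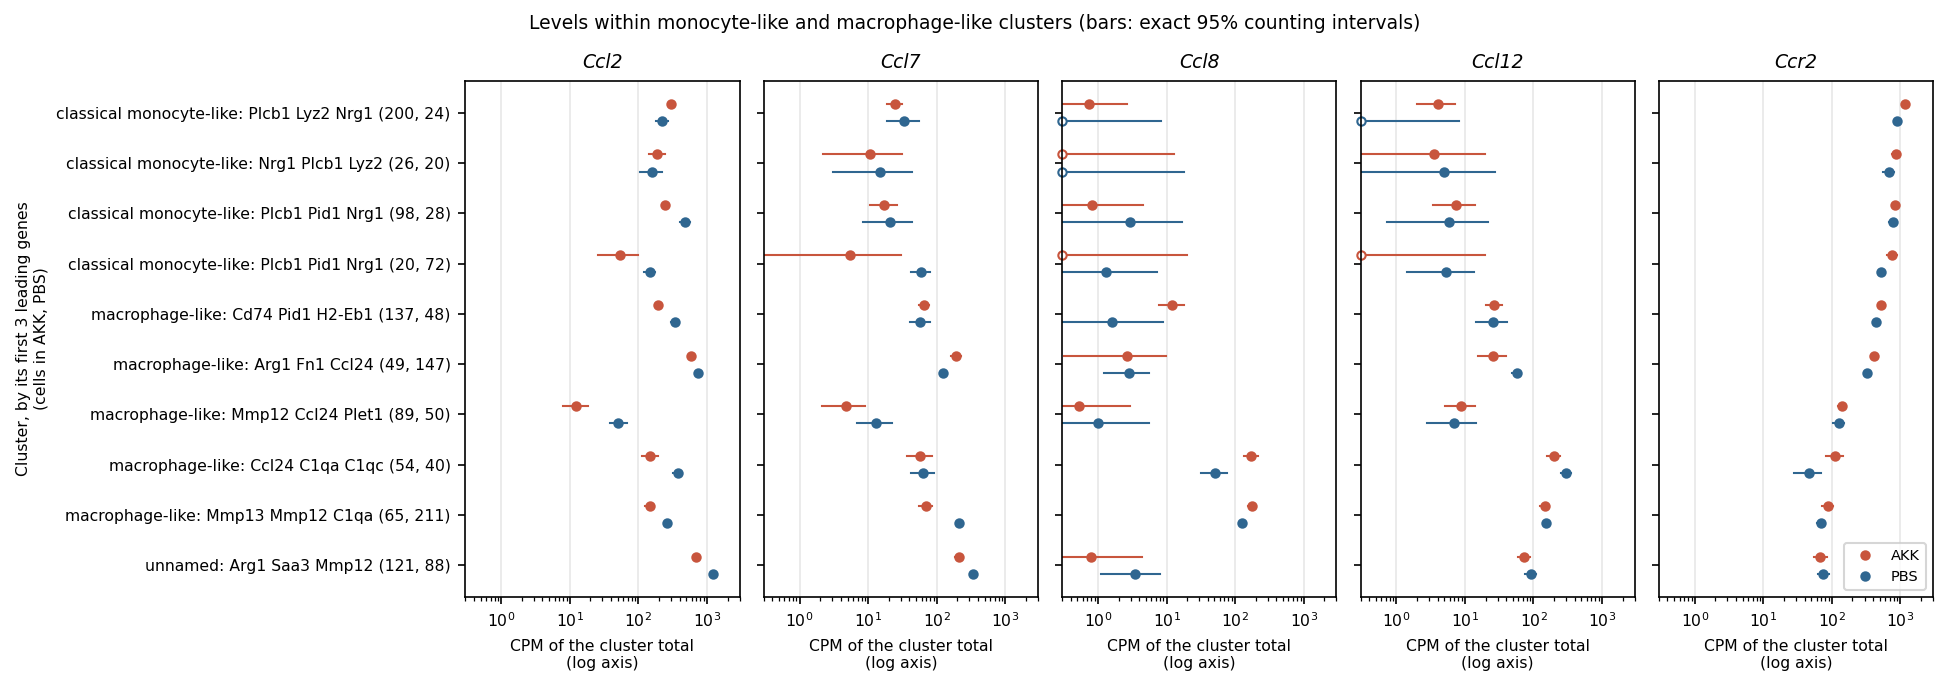
Level of each gene (CPM of the cluster total, log axis) in the clusters of classical monocyte-like and macrophage-like cells and the Arg1 and Saa3 cluster, 20 or more cells per library, AKK above PBS, with exact 95% counting intervals. Ccl2 was lower in AKK in all 5 macrophage-like clusters, and Ccr2 was lower in the C1qa-rich and Arg1 and Saa3 clusters at the bottom than in the monocyte-like clusters at the top.

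The ligand UMIs sat in few cells. The 10% of macrophage-like cells with most Ccl2 held 84.7% of its UMIs in AKK and 73.4% in PBS, and for Ccl8 such cells held all UMIs in AKK and 95.8% in PBS. The most Ccl2 in a single macrophage-like cell was 110 UMIs in AKK and 215 UMIs in PBS, and the medians were 0 and 1. Ccr2 was more even, with 44.3% of its UMIs in such cells in AKK and 53.1% in PBS. In cells thinned alike, Ccl7 was found in 36.2% of AKK and 43.0% of PBS macrophage-like cells that had Ccl2, against 4.91% and 7.62% of those that had none. Ccl12 was found in 20.3% of AKK and 23.7% of PBS cells with Ccl2, against 5.61% and 15.2% of cells without, so Ccl2 went with Ccl7 more than with Ccl12. Ccl8 was found in 5.80% of AKK and 8.33% of PBS cells with Ccl2, and in 3.86% and 6.98% of those without.

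**Figure D5:**
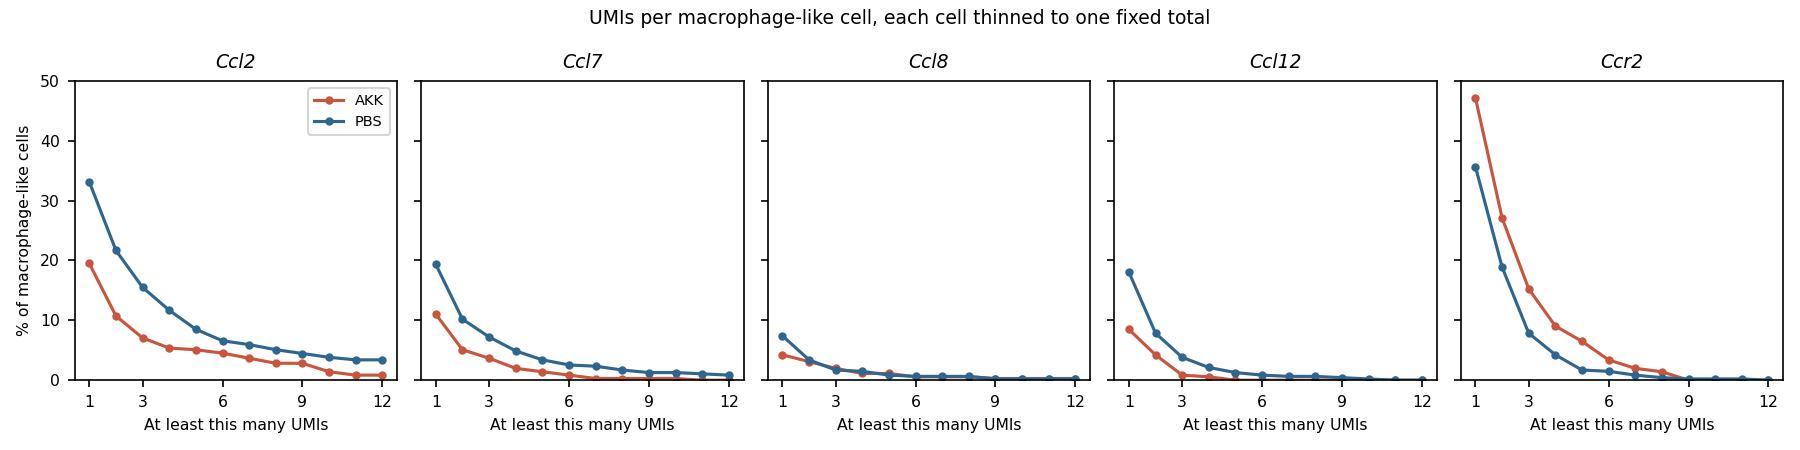
Share of macrophage-like cells (%) with at least the number of UMIs on the horizontal axis, after each cell was thinned to 3564 UMIs, for 354 AKK and 471 PBS cells. The AKK line lies below the PBS line for Ccl2, Ccl7 and Ccl12, both run together for Ccl8 from 2 UMIs on, and for Ccr2 the AKK line starts above, at 47.2% against 35.7% in PBS.

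Ccr2, the receptor, was highest in classical monocyte-like cells and higher in AKK there, at 1035 CPM (1006 to 1065) against 725.8 CPM in PBS (700.3 to 752.0), a ratio of 1.43 (1.36 to 1.49). The median cell had 10 UMIs of Ccr2 in AKK and 6 in PBS. Most monocyte-like cells carried it in both libraries, 89.1% in AKK and 81.1% in PBS at 4146 UMIs per cell, a difference of 8.03 percentage points (2.30 to 13.9). Different clusters made up the class here too, since the largest in AKK had 200 AKK and 24 PBS cells, and the largest in PBS had 9 AKK and 161 PBS cells. In the cluster of 200 AKK cells, led by Plcb1, Lyz2 and Nrg1, Ccr2 was 1178 CPM in AKK and 900.3 CPM in PBS (1.31, 1.18 to 1.46). All 4 monocyte-like clusters with at least 20 cells in both libraries had ratios above 1, of 1.08 to 1.46, and 3 intervals lay above 1. Neutrophil markers summed to 2285 CPM in AKK and 5881 CPM in PBS classical monocyte-like cells and mitochondrial UMIs had medians of 3.30% and 4.93%, and their part in the result was not tested.

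Macrophage-like cells had 278.8 CPM of Ccr2 in AKK (266.1 to 292.0) and 179.9 CPM in PBS (171.6 to 188.6), a ratio of 1.55 (1.45 to 1.66). Here the 5 clusters had ratios of 1.10 to 2.41, all above 1, and the log2 ratio was 0.33 with the clusters weighted alike, 0.25 without the Mmp13 cluster and 0.63 pooled. The Cd74 cluster had 525.3 CPM in AKK and 446.6 CPM in PBS, the Arg1 and Fn1 cluster 414.4 and 327.8 CPM, and the Mmp13 cluster 87.3 and 68.9 CPM. The Arg1 and Saa3 cluster, the richest in Ccl2, had 67.6 CPM of Ccr2 in AKK and 75.2 CPM in PBS (0.899, 0.669 to 1.21). Among these clusters, Ccr2 was thus low where Ccl2 was highest and where Ccl8 was highest, but the Arg1 and Fn1 cluster had high levels of both Ccl2 and Ccr2. Classical monocyte-like cells also had high levels of both. The single cells of the macrophage-like class, which leaves out the Arg1 and Saa3 cluster, did not show this pattern for Ccl2. After thinning to 3564 UMIs, Ccr2 was found in 52.17% of AKK cells with Ccl2 and 45.96% of those without. In PBS the shares were 36.54% and 35.24%.

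Lymphoid cells bore Ccr2 as well, as natural killer and effector T cells are known to do. NK or ILC1-like cells had 303.4 CPM in 531 AKK cells (288.4 to 319.0) and 128.7 CPM in 282 PBS cells (116.2 to 142.1), a ratio of 2.36 (2.11 to 2.64). At 4914 UMIs per cell, 60.2% of AKK and 31.3% of PBS cells had a Ccr2 UMI, against 1.27% and 1.43% of B-like cells. Both clusters of the class had ratios above 1, at 381.8 CPM in AKK and 178.0 CPM in PBS (2.15) in the larger and 123.6 and 70.8 CPM (1.75) in the smaller. Of 9068 genes in these cells, 5.72% were at least 1.5-fold higher and 6.64% that much lower. T-like cells had 125.0 CPM in AKK and 63.4 CPM in PBS (1.97, 1.73 to 2.25), where 4.37% of 10346 genes were that much higher and 6.55% lower. Gamma-delta T-like cells had 554.2 CPM in 100 AKK cells and 354.8 CPM in 26 PBS cells, for which no ratio was taken.

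Among the remaining classes, myeloid precursor-like cells had 267.0 CPM of Ccr2 in AKK and 126.4 CPM in PBS (2.11, 1.93 to 2.32), and their Prtn3, Nrg1 and F13a1 cluster 645.2 and 333.9 CPM (1.93). In the smaller precursor classes of the other clusterings Ccr2 stood between 82.6 and 124.0 CPM in AKK and between 29.8 and 67.8 CPM in PBS. Neutrophil-like cells had 11.96 CPM in AKK and 6.12 CPM in PBS (1.96, 1.46 to 2.63), near the B-like level in both libraries. Type 2 conventional dendritic (cDC2-like) cells had 263.8 CPM in 149 AKK cells and 79.2 CPM in 78 PBS cells, and cDC1-like cells 174.3 CPM in 62 AKK cells and 23.7 CPM in 44 PBS cells. The cDC2-like cluster led by Htr7 and Cd209a had 599.7 CPM in 79 AKK cells and 295.7 CPM in 22 PBS cells (2.03). The other cDC2-like cluster had 70 AKK and 56 PBS cells, so the make-up of the class differed too. Plasmacytoid dendritic (pDC-like) cells had 109.9 CPM in AKK and 101.3 CPM in PBS, with overlapping intervals, and nonclassical monocyte-like cells, known for low CCR2, had 268.8 CPM in 57 AKK cells and 311.2 CPM in 13 PBS cells. Tumour or epithelial-like cells, at 5.33 CPM in AKK and 4.73 CPM in PBS, did not exceed the B-like level. Among the 12 classes with 30 or more cells in both libraries, the order of Ccr2 levels in AKK ran from classical monocyte-like cells to NK or ILC1-like, macrophage-like, myeloid precursor-like and cDC2-like cells, and the intervals of these last 4 overlapped from each neighbour to the next. In PBS macrophage-like cells came second among these classes, apart from NK or ILC1-like and myeloid precursor-like cells, whose intervals overlapped. The smaller gamma-delta T-like class stood above NK or ILC1-like cells in AKK, and in PBS both it and nonclassical monocyte-like cells stood above macrophage-like cells.

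Genes around the axis were described from lists, with the share of genes past 1.5-fold given above as background. Of the cytokines known to induce Ccl2, 6 had enough UMIs in macrophage-like cells, and 5 were at least 1.5-fold lower in AKK and none higher, with a median log2 ratio of -1.33 against 0.11 for all genes. Tnf, the gene of tumour necrosis factor, had 216.8 CPM in AKK and 604.0 CPM in PBS (0.359), Il6 99.6 and 264.9 CPM (0.376), and Il1a 286.7 and 673.6 CPM (0.426). Il1b, the gene of interleukin 1 beta, had 2918 CPM in AKK and 3377 CPM in PBS (0.864). In classical monocyte-like cells 5 of 5 measured inducers were that much lower, where the Ccl2 level was nearly equal between the libraries.

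Of the other CC chemokines, 8 were measured in macrophage-like cells, with 2 at least 1.5-fold higher and 5 lower in AKK. The inflammatory chemokine genes Ccl3, Ccl4 and Ccl5 were among the lower ones, with Ccl4 at 787.1 CPM in AKK and 3005 CPM in PBS (0.262), Ccl5 at 172.6 and 473.3 CPM (0.365), and Ccl3 at 371.9 and 758.0 CPM (0.491). Ccl24, an eosinophil attractant, had 1453 CPM in AKK and 920.2 CPM in PBS (1.58, 1.53 to 1.63). Ccl17, a ligand of CCR4, had 101.0 CPM in AKK and 63.1 CPM in PBS (1.60, 1.43 to 1.79). Of 9 other chemokine receptors measured in these cells, none was higher and 2 were lower past 1.5-fold. Cx3cr1, the fractalkine receptor gene, had 69.4 CPM in AKK and 138.2 CPM in PBS macrophage-like cells (0.502), but 62.0 and 36.7 CPM in classical monocyte-like cells (1.69). Of 10 measured genes of CCR2 signalling and chemokine scavenging, 1 was higher past 1.5-fold and 1 lower. Arrb1, whose product beta-arrestin 1 takes part in receptor desensitisation, had 99.3 CPM in AKK and 65.8 CPM in PBS (1.51, 1.349 to 1.685). Ccrl2, an atypical receptor gene, had 374.1 CPM in AKK and 631.2 CPM in PBS (0.593). The intervals of Arrb1 and Ccl17 included 1.5. The list counts were taken without scaling by the median gene, whose log2 ratio here was 0.11. Calls of higher genes so close to 1.5-fold are therefore uncertain.

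Genes with the most similar pattern were sought over 24 points, 12 classes of 30 or more cells per library times the 2 libraries, by Pearson's r of log2(CPM + 10) over 13249 genes. The points share libraries and depth, so r is given as a description. Ccl2 was most like Gab1 (r = 0.947), Slc22a4, Fn1, Trem2 and Gas2l3, and Ccl7 most like C3ar1 (0.957), Arg1, Siglec1, Il27 and Slc7a2. Ccl8 was most like Cxcl14 and Ms4a7 (both 0.986), with Itga9 and Ccl12 (both 0.979) next, and Ccl12 most like Ms4a7 (0.986) and then Ccl8. Among the members, Ccl2 and Ccl7 had r = 0.872, Ccl2 and Ccl8 0.614, and Ccr2 had no more than 0.499 with any ligand. The genes most like Ccr2 were Dr1 (0.917), Dse, Zfp992, Zfp991 and Lrpap1, of which Zfp992 and Zfp991 belong to a family of near-identical zinc finger genes and are uncertain.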

How the data were processed

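Tumours were digested with collagenase, and live CD45+ cells were sorted for 10x Genomics 3′ libraries, per the labels' protocols. The deposited values are raw UMI counts per gene and barcode; the matrices were written by Cell Ranger 7.1.0 per the file headers, while Cell Ranger 5.0.1 and the mm10 build are named in the submitters' processing notes. Intron counting and the annotation release have no source here.

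Barcodes with at least 200 genes and under 15% mitochondrial UMIs were kept. Doublets were taken as the highest Scrublet scores at 0.8% per 1000 barcodes (345 AKK and 195 PBS barcodes). Both libraries were clustered together on 2000 variable genes without the 5 members (30 components, 15 neighbours, Leiden resolution 1.0), and mixed clusters were split again. A cluster took the name of its best of 22 marker sets if it scored at least 1.0 and at least 3 markers were found in 20% of its cells. The scoring rules were set after clusters had been seen, and names rest on this rebuilt clustering. UMIs were summed per class and library. Ratios are AKK over PBS, taken where both libraries had 100 cells of a class or 20 of a cluster, and genes with at least 50 UMIs were counted as past 1.5-fold. Intervals are exact Poisson (levels), exact conditional binomial (ratios), Clopper-Pearson (shares) and Newcombe (differences of shares). Shares were thinned to the percentile 10 of UMIs in the class. The 5 genes, the 4 gene lists, the marker sets and the motifs were chosen with earlier results of these data known. The genes named are the 5 members, genes of these lists and the 5 most alike genes per member. The ratio and its interval were tested on simulated counts. Python tools were scanpy 1.11.5, anndata 0.12.19, scipy 1.17.1 and scikit-learn 1.9.0. The alternatives tried were other filters, clusterings, weights and scalings.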

Additional observations from a re-analysis of the deposited data

Results flagged for a closer look

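Results were picked out here where a gene was at least 1.5-fold higher in AKK in one class and at least 1.5-fold lower in another. The differences between classes were not tested, since each group has 1 library. Ccl2 had a ratio of 2.327 in myeloid precursor-like cells and 0.4342 in macrophage-like cells. Ccl7 had ratios of 2.115 in myeloid precursor-like and 1.729 in tumour or epithelial-like cells, against 0.648 in classical monocyte-like, 0.4236 in macrophage-like and 0.4828 in neutrophil-like cells. Ccl2 stayed lower in macrophage-like cells under each alternative run, whereas in the precursors it could be recomputed with at least 100 cells under 4 alternatives only, where it stayed higher. In the 5 smaller precursor classes given by other filters or clusterings it stood between 32.8 and 42.1 CPM in AKK and between 25.6 and 33.7 CPM in PBS, short of 1.5-fold in each. The Ccl7 values of the precursor, tumour and monocyte classes did not hold their direction under every alternative, as given under the processing.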

How the results depend on the processing

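All values are log2 ratios, AKK over PBS; 2 kinds of alternatives, the weighting of clusters alike and the change of which clusters belong to the macrophage-like class, were chosen after seeing the data. Ccl2 in macrophage-like cells (-1.204) kept its direction at -1.045 with 1000 UMIs per barcode, -0.792 with no doublets removed, -0.967 at resolution 2.0, -1.084 with libraries clustered alone, -1.017 with cells weighted alike, -1.315 with median scaling, -0.71 with clusters weighted alike, -0.959 with the Arg1 and Saa3 cluster and -1.51 without the Mmp13 cluster. Ccl7 in macrophage-like cells (-1.239) gave -1.725 with 1000 UMIs, -1.586 at 10% mitochondrial UMIs, -1.683 with doublets kept, -1.557 clustered alone, -1.007 by each cell's own score, -0.272 with clusters alike, -0.985 with the Arg1 and Saa3 cluster and -0.537 without the Mmp13 cluster. Ccl8 (-0.289) gave -0.662 with doublets kept, -0.566 at resolution 2.0, -0.505 clustered alone, 0.012 by own score, 0.488 with cells alike, 0.998 with clusters alike and 1.499 without the Mmp13 cluster. Ccl12 (-0.936) gave -1.161 clustered alone and -0.418 with clusters alike. Ccr2 in classical monocyte-like cells (0.512) gave 0.66 with doublets kept, 0.708 at resolution 2.0, 0.427 clustered alone, 0.629 with cells alike, 0.37 with median scaling and 0.342 with clusters alike. The direction turned for Ccl7 in classical monocyte-like cells with 1000 UMIs (0.139) and clustered alone (0.114), in myeloid precursor-like cells with cells alike (-2.429), and in tumour or epithelial-like cells by own score (-0.353) and with cells alike (-0.478). The causes were not tested. The myeloid precursor-like class gave no value under the stricter UMI and mitochondrial limits, with doublets kept, at resolution 2.0 and clustered alone, nor the tumour or epithelial-like class with 1000 UMIs and clustered alone, since a library then had fewer than 100 cells. Genes at least 1.5-fold higher numbered 879 in macrophage-like and 1123 in classical monocyte-like cells, but 3397 and 4353 with a floor of 1 UMI and 578 and 671 with median scaling; those lower numbered 828 and 727, but 5177 and 4478 with that floor.

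No paired analysis was possible because each group has 1 library. Depth limits Ccl8 and Ccl12 outside macrophage-like cells, where most classes had fewer than 50 UMIs of either gene.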
